A study of Mus musculus with 6 samples.

Results

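RUNX1 binding was described at 5 genes that act together in the gonad: the GATA factors Gata4 and Gata6, the FOG cofactors Zfpm1 (FOG1) and Zfpm2 (FOG2), and Wt1. The genes were taken by name, and their peaks were those with a summit inside the RefSeq gene body (mouse build GRCm38, used for all positions) or within 50 kb of either end. Of 51515 peaks in 4 lists, 76 met this rule, at 5 of 21887 protein-coding genes. The measurements were chromatin immunoprecipitation sequencing (ChIP-seq) of RUNX1, a DNA-binding transcription factor, in granulosa cells, the somatic cells around the oocyte. The cells came from CBA x C57BL/6 F1 mice 21 days old that had been given eCG (5 IU of equine chorionic gonadotropin) to make follicles grow. Libraries were made before human chorionic gonadotropin (hCG), called 0 h, and 6 h after 5 IU of hCG, which acts as the ovulatory signal and was given 46 h after eCG, with 2 ChIP libraries and 1 pooled input per time point. The time points rest on the titles and time labels, since the treatment text of every sample describes collection at 6 h only. Nothing in the labels says whether replicates came from separate mice, so the spread between them may be technical. RNA was not measured in these samples, so the cell type was not checked against marker genes.

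GATA4 and GATA6 are zinc-finger transcription factors that bind GATA sequences and are the GATA factors known for granulosa and other gonadal somatic cells. FOG1 and FOG2 do not act by binding DNA themselves. They bind a zinc finger of GATA factors and bring corepressors such as the NuRD complex and CTBP, and the contact between GATA4 and FOG2 is needed for the gonad to differentiate. WT1 is a zinc-finger factor of the genital ridge that is also known for granulosa cells of growing follicles.

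The lists differed greatly in length, which bears on every count. The 0 h lists held 948 and 3135 peaks and the 6 h lists 18761 and 28671, while the genome-wide background recovered from the peak statistics lay between 2.13 and 2.77 reads per position, lowest in 6 h replicate 2. A fold is the authors' enrichment over local background at the summit. A percentile is the rank of that fold within its own list. At the genome-wide background, a position needed at least 18 reads in 0 h replicate 1 and 17 in replicate 2 to be listed, and more where the local background was higher. A site without a 0 h peak may therefore have carried signal below its own limit.

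All 5 genes had RUNX1 peaks at 6 h, and Gata4, Gata6 and Wt1 had them at 0 h as well. The windows held 5 and 5 peaks in the 0 h replicates and 26 and 40 in the 6 h replicates. The means were 5 ± 0 and 33 ± 9.90 peaks (SD, n = 2 each), so the time points did not overlap. The difference in log2(peaks + 1) was 2.47 (two-sided exact permutation test, p = 0.333, with 2 libraries per time point), and 0.333 is the smallest p that 2 libraries against 2 can give. The number of peaks was higher in both 6 h lists than in both 0 h lists for 5 of 5 genes, as it was for 64.7% of all protein-coding genes. Counting peaks in the gene body alone, Gata6 had 1 peak in 6 h replicate 1 and in each 0 h list, so this held for the other 4 genes and not for Gata6.

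**Figure D1:**
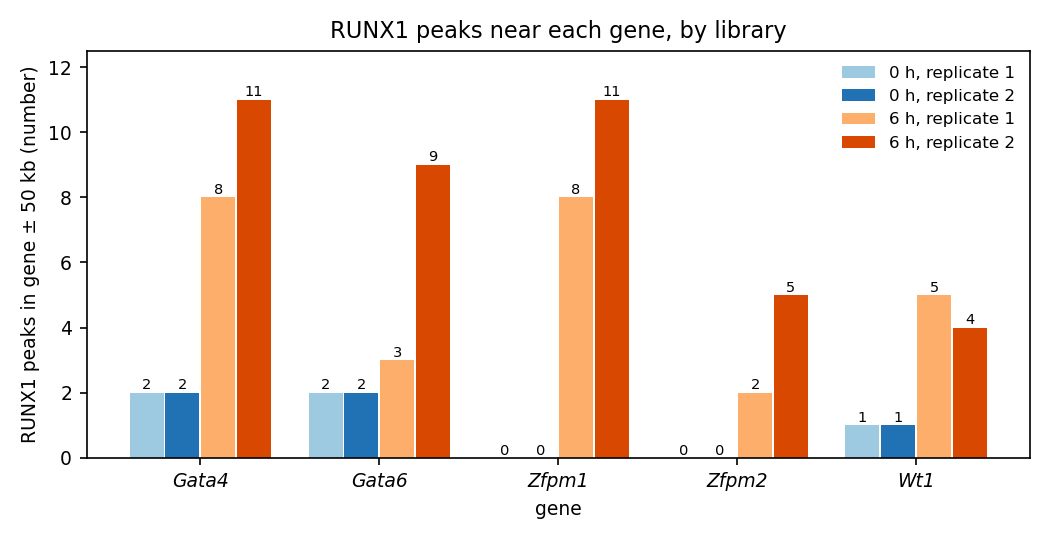
Number of RUNX1 peaks with a summit in each gene or within 50 kb of it, with 1 bar per library and no averaging. Zfpm1 and Zfpm2 have 0 peaks in both 0 h libraries, and Gata4 and Zfpm1 reach 11 peaks in 6 h replicate 2.

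Relative to the length of each list, the windows were not richer in peaks at 6 h. They held 5.27 and 1.59 of every 1000 peaks at 0 h and 1.386 and 1.395 of every 1000 at 6 h. The means were 3.43 ± 2.60 and 1.39 ± 0.00656 (SD, n = 2 each), a difference of -2.04 that was below the spread of the 0 h libraries (two-sided exact permutation test, p = 0.333). It became -0.204 without 0 h replicate 1, the shortest list, and -3.88 without 0 h replicate 2. With peaks at −log10 q values of 20 or more it was -4.07, and in the gene body alone -1.24. With every list limited to its 948 peaks of lowest p, the windows held 5 and 4 peaks at 0 h and 3 and 4 at 6 h. The higher number at 6 h was thus not seen at equal length. These counts include 2 and 2 Gata6 peaks at 0 h, both spanned by the 1 Gata6 peak of each 6 h list. Gata4 then had 2 and 2 peaks before hCG and 1 and 2 after it, a difference of -0.29 in log2(peaks + 1). Zfpm1 was the member with a peak in both shortened 6 h lists and in neither 0 h list, 1 in each. That peak lay 18.4 kb beyond Zfpm1, with its summit in the neighbouring gene Trhr2, 196 bp from an end of Trhr2.

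Replicated regions, which are merged intervals with a peak of both replicates, numbered 5 at 0 h and 23 at 6 h in the windows. At 0 h, 3 of the 5 genes had one, against 8.76% of protein-coding genes. At 6 h, 5 of 5 genes had one, against 68.9%. Zfpm1 and Zfpm2 had a replicated region at 6 h and no 0 h peak, or 2 of 5 genes against 40.4%. Of the 23 regions at 6 h, 4 overlapped a 0 h peak, or 17.4% (exact Clopper-Pearson 95% CI 4.95 to 38.8, counting error only), beside 16.5% of all replicated 6 h regions. The share was 10% of the peaks left without 6 h replicate 1 and 10.5% when an overlap had to cover 50% of both peaks, both within that interval. At equal list length it was 66.7%, or 2 of 3 regions, outside that interval. In all, 14 of the 23 regions had their summit inside the member gene.

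Gata4, on chromosome 14 from 63198914 to 63271712, had 2 and 2 peaks at 0 h and 8 and 11 at 6 h. The difference was 1.79 in log2(peaks + 1) (two-sided exact permutation test, p = 0.333), and both 6 h lists lay above both 0 h lists. With peaks at −log10 q values of 20 or more it was 0.92. Its 7 replicated regions at 6 h were more than in 94.6% of protein-coding genes, whose median was 2 per window. They came to 4.05 per 100 kb of window, against a median of 0.969 over those genes. The top 10% of those genes by this density began at 4.22, so Gata4 was not among them once window length was allowed for. Both 0 h regions were found again at 6 h.

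The strongest Gata4 site at 0 h was chr14:63164333-63165159 (6 h limits), 34.1 kb outside the lower-coordinate end of Gata4 and inside Fdft1, which encodes squalene synthase of cholesterol synthesis. Its fold was 19.9 and 28.2 in the 0 h replicates, at percentiles 98.7 and 99.7 of those lists. At 6 h the fold was 15.8 and 25.2, at percentiles 86.5 and 90.7. The mean fold was 24.0 ± 5.86 before hCG and 20.5 ± 6.63 after it (SD, n = 2 each), and the time points overlapped. A lower mean fold at 6 h than at 0 h was found in 5.18% of the 791 regions replicated at both time points. The summits of all 4 libraries lay within 17 bp of each other between time points.

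The read pileup at this site moved the other way. It was 105 and 144 reads before hCG, against 167 and 196 reads afterwards. Divided by the genome-wide background of its library, the pileup was 37.9 and 54.3 before hCG, against 60.5 and 91.9 afterwards, without overlap between the time points. The local background that enters the fold was 4.33 and 4.15 reads before hCG, against 9.64 and 6.83 afterwards. The scaled pileup was higher by 0.73 on the log2 scale at 6 h, whereas the median over the 791 regions was 1.89. Only 10.6% of those regions had a difference as low or lower, and the site ranked 18 of 791 by its scaled pileup at 0 h. The scaling allows for the depth of a library only.

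The other shared Gata4 region, chr14:63244415-63246659, lay inside the gene, 26.2 kb from its upper-coordinate end. Its fold was 15.5 and 16.2 at 0 h, at percentiles 95.7 and 97.2, and 13.0 and 21.8 at 6 h, at percentiles 78.7 and 87.3. The scaled pileup went from 37.5 and 39.6 to 61.2 and 105, higher by 1.11 on the log2 scale and again without overlap. The region was 682 bp wide at 0 h and 2245 bp at 6 h. At 6 h it stood in a cluster: of the 5 other replicated regions of the window, 4 lay inside Gata4, between 16.0 and 31.0 kb from the upper end. Their scaled pileups averaged between 10.6 and 16.7, far below the 83.1 ± 31.0 (SD, n = 2) of the shared region. The remaining region, chr14:63177672-63178301 in Fdft1 and 20.9 kb from Gata4, had a fold of 10.2 and 10.5 at 6 h and no 0 h peak. The table gives the outer limits of a gene over all its transcripts, so starts of shorter transcripts inside Gata4 were not resolved.

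**Figure D2:**
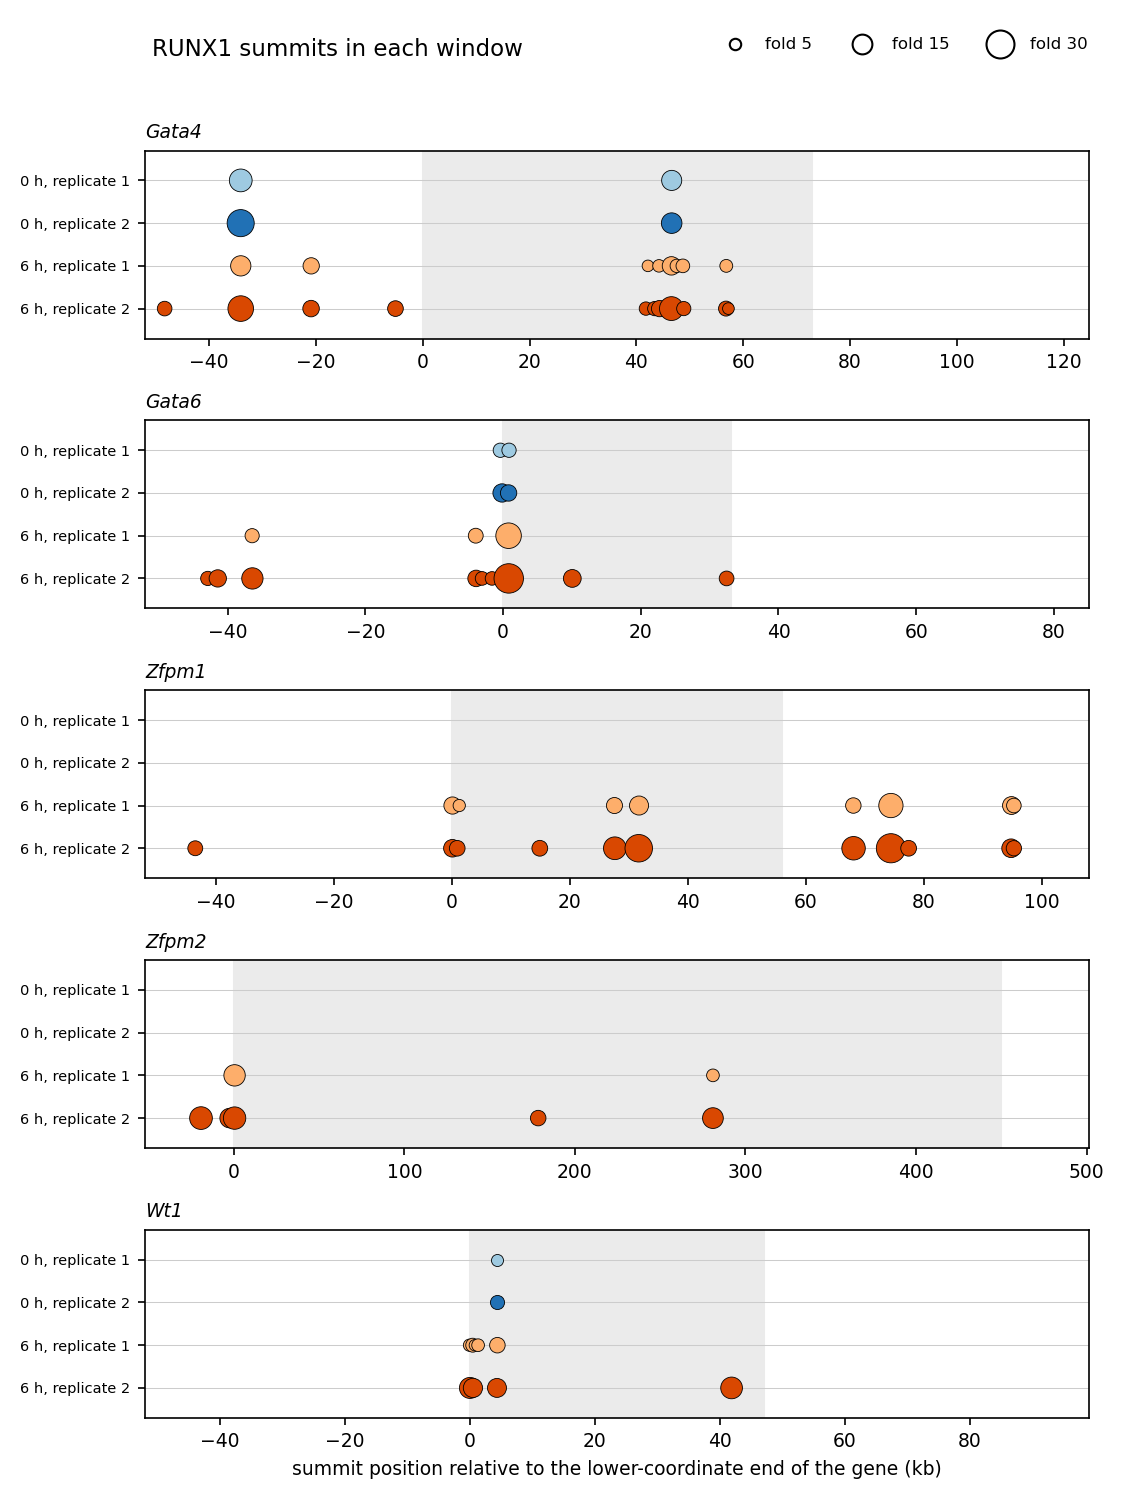
Summits of RUNX1 peaks in the 5 windows, with 1 lane per library, the gene body shaded, position in kb from the lower-coordinate end of each gene, and circle area proportional to fold. Gata4, Gata6 and Wt1 have circles at the same places at 0 h and 6 h, those of Gata4 being the largest at 0 h, and the 0 h lanes of Zfpm1 and Zfpm2 are empty.

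Gata6, on chromosome 18 from 11052510 to 11085636, had 2 and 2 peaks at 0 h and 3 and 9 at 6 h. The difference of 1.08 in log2(peaks + 1) (two-sided exact permutation test, p = 0.333) rested largely on 6 h replicate 2, since it was 0.42 without that library. It was also 0.61 with a window of 10 kb and 0.50 in the gene body alone (exact permutation p = 1 for both). At equal list length it turned to -0.58, with 2 and 2 peaks before hCG and 1 and 1 after it. The 1 peak of each 6 h list spanned both peaks of each 0 h list, so the lower count was not the loss of a site. Of the 9 peaks of 6 h replicate 2, 6 had no partner in replicate 1. Its 3 replicated regions at 6 h were more than in 65.6% of protein-coding genes and came to 2.25 per 100 kb of window.

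RUNX1 signal at Gata6 gathered at the lower-coordinate end of the gene, close to the upper-coordinate limit of the noncoding gene Gata6os. At 0 h there were 2 separate replicated regions. One lay at chr18:11051850-11052519 across the gene end, with folds of 7.86 and 12.9 (percentiles 52.6 and 93.5). The other lay at chr18:11052681-11053512 inside the gene, with folds of 7.82 and 10.3 (percentiles 52.1 and 84.3). At 6 h a single region of 4266 bp, chr18:11051332-11055597, covered both, with folds of 25.0 and 33.3 (percentiles 96.4 and 95.5). It was the widest of the 23 regions at 6 h and the one with the highest mean percentile, 96. Its summit carried 205 and 239 reads, while the higher of the 0 h peaks carried 52 and 59 reads. After scaling, the values went from 18.8 and 22.2 to 74.3 and 112, without overlap. The log2 difference was 2.18, above the median of 1.89 over the regions replicated at both time points, and 68.1% of those regions lay at or below it.

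The other Gata6 regions at 6 h had no 0 h peak. One at chr18:11015697-11016278 lay 36.4 kb outside the lower end, with a fold of 7.72 and 17.5. The other, at chr18:11048410-11048748 inside Gata6os, lay 3.97 kb from Gata6 and had a fold of 8.49 and 10.5. The replicates differed more than 2-fold at the first of these sites and little at the second.

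The 4 shared regions of the windows were set beside all 791 regions replicated at both time points. The scaled pileup was higher in both 6 h libraries than in both 0 h libraries at 4 of 4, as at 91.3% of all of them. The median scaled pileup of the 791 regions went from 15.6 to 60.9. Before hCG, the Gata4 sites ranked 18 and 34, the Gata6 region 178 and the Wt1 region 787, so Gata4 stood near the top and Wt1 near the bottom.

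**Figure D3:**
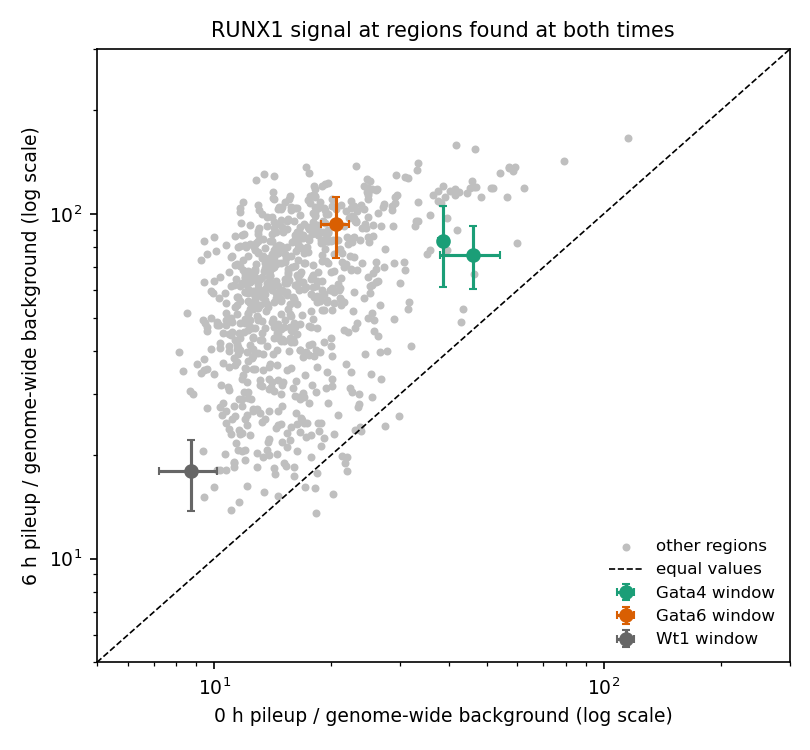
Read pileup at the summit divided by the genome-wide background of the library, mean of the 0 h libraries against mean of the 6 h libraries, on log axes, for the 791 regions replicated at both time points. Bars on the regions of the Gata4, Gata6 and Wt1 windows span the replicates, and all 4 regions lie above the line of equal values, the Gata4 points to the right of most others.

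Zfpm1 encodes FOG1. The gene lies on chromosome 8 from 122281856 to 122337862 and had 0 and 0 peaks at 0 h and 8 and 11 at 6 h. The difference of 3.38 in log2(peaks + 1) was the highest of the 5 genes (two-sided exact permutation test, p = 0.333). Its 8 replicated regions at 6 h were more than in 96.7% of protein-coding genes and came to 5.13 per 100 kb of window. None overlapped a 0 h peak, and their mean percentiles ran from 27.1 to 95.1.

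One of these regions crossed the lower-coordinate end of Zfpm1, the member with a promoter entry in the RefSeq table (GRCm38.p6). The sequence is shown because the 6 h summits fall in it. The region chr8:122280945-122282132 had a fold of 11.3 and 11.9 and a pileup of 65 and 55 reads in the 6 h replicates. The promoter, chr8:122281891-122282190 on the plus strand, runs from 250 bases before a start to 50 after it. The region overlapped most of the promoter but ended short of that start, which lay 188 bp from the summit of replicate 1. The capitals mark the bases from the summit of replicate 2, at position 50 counted from 1 at the 5′ end, to that of replicate 1, at position 63. The noncoding gene Gm39269, which overlaps the lower end of Zfpm1, has a start on the minus strand 424 bp away. Its promoter, chr8:122281668-122281967, is shown beside it because the same region covers it and the promoters share 77 bp; there the capitals mark a match to a GATA motif.

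Zfpm1 promoter: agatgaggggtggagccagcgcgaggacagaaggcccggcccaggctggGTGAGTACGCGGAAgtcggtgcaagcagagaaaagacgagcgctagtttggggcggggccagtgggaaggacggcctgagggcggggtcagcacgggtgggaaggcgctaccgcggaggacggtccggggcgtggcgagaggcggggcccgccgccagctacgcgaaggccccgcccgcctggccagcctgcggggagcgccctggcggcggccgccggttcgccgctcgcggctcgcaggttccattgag
Gm39269 promoter: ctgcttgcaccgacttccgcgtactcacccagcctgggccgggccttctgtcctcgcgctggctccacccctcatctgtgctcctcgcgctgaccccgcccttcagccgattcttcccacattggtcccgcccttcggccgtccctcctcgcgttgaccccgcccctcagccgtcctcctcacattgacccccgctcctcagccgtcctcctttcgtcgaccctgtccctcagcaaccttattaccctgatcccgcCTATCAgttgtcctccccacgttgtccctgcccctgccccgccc

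The core RUNX letters TGTGGT and TGCGGT were searched on both strands. Neither was found in the 2 promoters, while 22.4% of 32817 RefSeq promoters of this length held at least one. The GATA letters searched were AGATAA or AGATAG and, with another first base, TGATAA or else TGATAG. They had no match in the Zfpm1 promoter and 1 in that of Gm39269, TGATAG on the opposite strand at positions 257 to 262. At least one of these was found in 29.8% of all promoters. The Zfpm1 promoter was rich in G and C, 73.7% of its bases against a median of 52.7%. A match or its absence describes these letters in this window only.

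The strongest Zfpm1 region, chr8:122355757-122356717, lay 18.4 kb beyond the upper end of Zfpm1. Its summit was in Trhr2, a thyrotropin-releasing hormone receptor gene, 196 bp from an end of that gene. The fold was 22.6 in replicate 1 and 32.7 in replicate 2, close to percentile 95 of each list, and the summits were 3 bp apart. The pileup was 149 and 194 reads over a local background of 5.63 and 4.97 reads. A pair of regions lay deep inside Zfpm1, 24.3 and 27.6 kb from its nearer end. The one at chr8:122313061-122313885 had a fold of 13.9 and 29.0, and the one at chr8:122309139-122309731 a fold of 9.93 and 19.8, with replicate 2 the higher at both. A weaker region at chr8:122282646-122283328, 903 bp inside the lower end, had 5.78 and 9.43.

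Zfpm2 encodes FOG2 and is the longest of the 5 genes, with 449.6 kb on chromosome 15 from 40655042 to 41104592. It had 0 and 0 peaks at 0 h and 2 and 5 at 6 h, a difference of 2.08 in log2(peaks + 1) (two-sided exact permutation test, p = 0.333). At equal list length Zfpm2 had 0 peaks in every list and the difference was 0. The 2 replicated regions were more than in 49.5% of protein-coding genes and came to 0.364 per 100 kb, the lowest density of the 5 windows. The first, chr15:40654826-40656344, crossed the lower end of the gene, with a summit 467 bp inside. Its fold was 17.6 and 19.2 at percentiles 89.7 and 83.3, and its pileup was 73 and 78 reads. The second, chr15:40935673-40936191, lay 168.6 kb from the nearer end of Zfpm2. The fold there was 6.19 in replicate 1 (percentile 19.8) and 16.5 in replicate 2 (percentile 76.9), so the replicates differed there more than at the gene end.

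Wt1, on chromosome 2 from 105126529 to 105173614, had 1 and 1 peak at 0 h and 5 and 4 at 6 h. The difference was 1.45 in log2(peaks + 1) (two-sided exact permutation test, p = 0.333), without overlap. At equal list length it turned to -0.50, with 1 peak in 0 h replicate 1 and 0 in the other lists. The 3 replicated regions of Wt1 at 6 h were more than in 65.6% of protein-coding genes. The site found at both time points, chr2:105130402-105131095, lay inside the gene, 4.32 kb from its lower end. At 0 h it had a fold of 5.57 and 7.67 from 20 and 27 reads, where 18 and 17 are needed for listing at the genome-wide background. At 6 h it had a fold of 9.25 and 13.8 from 38 and 47 reads. The scaled pileup went from 7.22 and 10.2 to 13.8 and 22.0, a log2 difference of 1.04.

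The lower end of Wt1 was covered at 6 h and had no 0 h peak. The region chr2:105126271-105126714 lay across it, and its strongest summit was in the gap between Wt1 and the noncoding gene Wt1os, 11 bp from Wt1 and 8 bp from Wt1os. Its fold was 5.74 and 16.9, at percentiles 14.1 and 78.2. The next region, chr2:105126836-105127914, consisted of 3 peaks in replicate 1 and a single peak of 1006 bp in replicate 2, with folds of 4.98 to 7.45 in the former and 14.2 in the latter. None of the Wt1 regions reached the top 10% of either 6 h list.

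Ranks of the peaks are given within each list, and since the lists differ in length they are not compared between time points. At 0 h, 2 of 5 peaks in replicate 1 and 3 of 5 in replicate 2 were among the top 10% of their list by fold. At 6 h, 2 of 26 and 4 of 40 were, and 14 of 26 and 20 of 40 lay below the median of their list. All 26 peaks of 6 h replicate 1 belonged to replicated regions, whereas 17 of the 40 peaks of replicate 2 did not. The whole lists held 18761 and 28671 peaks and gave 17190 replicated regions. The share of all peaks in such regions was not computed.

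**Figure D4:**
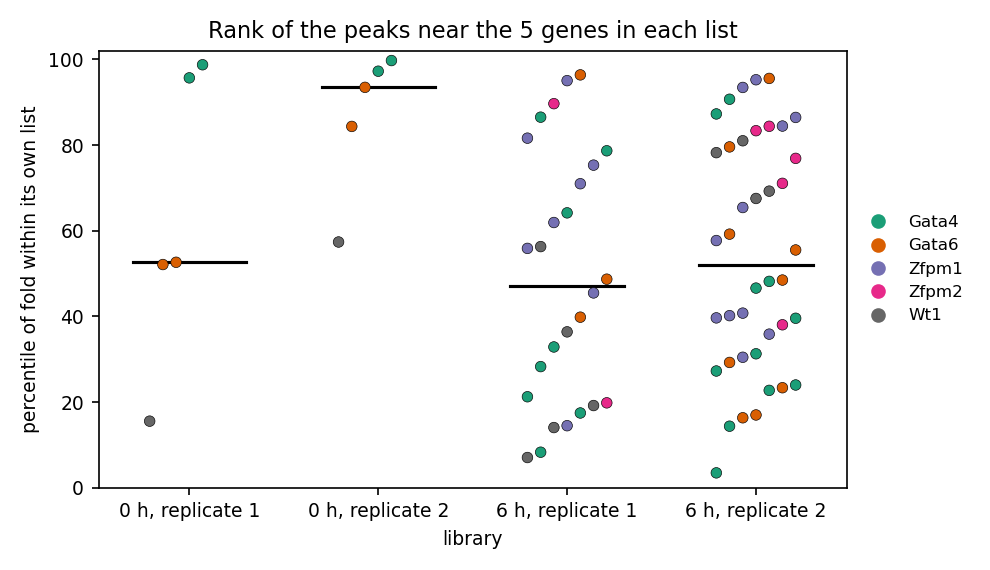
Percentile of fold within its own list for each peak of the 5 windows, by library, with the median of the points as a line and colours for genes. The Gata4 peaks lie above percentile 95 in both 0 h lists, and the 6 h peaks spread over nearly the whole range.

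Genes that work with the members were counted by the same rules. The lists were not independent of earlier results on these data. Of 16 gonadal genes known as GATA4 targets, 5 had a replicated region at 0 h and 14 at 6 h, beside 8.76% and 68.9% of all protein-coding genes. A further 5 had an unreplicated 0 h peak. The median was 4.5 regions per window at 6 h both for the 16 genes and for the NuRD and CTBP genes, against 2 over all genes. The 5 genes with a replicated 0 h region were the hormone gene Amh, the inhibin subunit genes Inha and Inhbb, Cyp11a1 (the first enzyme of steroid synthesis) and Lhcgr, which encodes the receptor for luteinising hormone and hCG. The Inhbb region, with folds of 10.04 and 8.73 at 0 h, was not replicated at 6 h, and the other 4 were. The Inha region went from folds of 12.46 and 10.79 to 15.7 and 25.8, and the Cyp11a1 region from 8.10 and 10.1 to 19.3 and 22.2. The Amh region went from 5.60 and 9.86 to 25.2 and 30.9, and the Lhcgr region, inside the gene, from 8.43 and 9.42 to 36.5 and 46.6. The 0 h regions of the other genes lay outside them. The distance was 6.6 kb for Inha and for Amh, 10.1 kb for Cyp11a1 and 28.9 kb for Inhbb. None of the 5 other GATA family genes (0 of 5) had a replicated 0 h region, while 4 had a 6 h region and Gata5 lacked one. Of 14 genes for NuRD subunits and CTBP corepressors, all 14 had a 6 h region and 0 a replicated 0 h region, though 6 had an unreplicated 0 h peak. Of 9 WT1 partners and gonadal ridge factors, 9 had a 6 h region and 0 a replicated 0 h region, though 3 had an unreplicated 0 h peak. No share over all genes was computed for unreplicated 0 h peaks. A 6 h region without any 0 h peak was found in 40.4% of all protein-coding genes. It was found for 4 of the 16 GATA4 targets and 4 of the 5 other GATA genes. It was also found for 8 of the 14 corepressor genes and 6 of the 9 WT1 partners and ridge factors.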

How the data were processed

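RUNX1 ChIP-seq libraries of 75 nt single reads, 2 per time point, were compared at 0 h and 6 h after hCG. The inputs entered only through the peak calls. Reads were aligned with Bowtie2 2.2.5 to mm10 and peaks called with MACS2, per the submitters' processing notes. Other settings are not given in the sources used here. In the deposited lists each peak has an interval, a summit, a fold enrichment (a ratio) and 2 statistics, −log10 p and −log10 q. Their score is 10 times the deposited −log10 p cut to a whole number and was not used. The lowest deposited −log10 p was 9.01 to 9.18.

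Genes were taken from RefSeq on GRCm38.p6, the assembly of mm10, and coordinates count from 1. The table lists whole genes without exons or strand. Pileup and local background were solved from fold and −log10 p under the Poisson model of MACS2 (misfit at most 0.005, 100% of peaks), after the solver was tested on simulated data. The commonest background of a list was its genome-wide background, and a scaled pileup is pileup divided by it. Peaks sharing at least 1 bp were merged. Libraries of the time points were compared by two-sided exact permutation tests on log2(peaks + 1). The text names all 5 members, each region with a 0 h peak or within 1 kb of a member's end, and the 3 highest-ranking regions per member. Members, lists and rules were chosen with earlier results of these data known. Alternatives changed the window, the peaks, the overlap rule, the pseudocount, the pairing and the libraries. Python 3.11.15, pandas 2.3.3 and scipy 1.17.1 were used.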

Additional observations from a re-analysis of the deposited data

How the results depend on the processing

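The difference in member peaks between time points kept its direction with windows of 10 and 100 kb, with the gene body alone, at −log10 q values of 20 or more, with a pseudocount of 0.5 and without any single library. With equal numbers of peaks per list it reversed to -0.29, and so did the differences for Gata4 (-0.29), Gata6 (-0.58) and Wt1 (-0.50). That for Zfpm1 was 1 and that for Zfpm2 was 0. Every shortened list holds 948 peaks, so the 6 h lists keep a smaller part of their peaks than the 0 h lists. At Gata6, 1 peak of each 6 h list spanned both peaks of each 0 h list. The Zfpm1 peaks had their summits in Trhr2. Equal numbers also left 3 replicated regions at 6 h, 66.7% of them with a 0 h peak, and 3 member genes with a region. Replicated regions numbered 3 at 0 h and 14 at 6 h both in the gene body alone and at −log10 q values of 20 or more. Leaving out 1 library gave 23 to 40 regions at 6 h, the highest without 6 h replicate 1, when each peak of replicate 2 counts. A replicate block by library number left the difference at 2.47 (exact sign-flip test, p = 0.5, the smallest possible). Libraries share only a number: the deviations of same-numbered libraries had r = -0.0299 over 21887 genes. The inferred depth and the local background set the lowest signal that could be listed. The exact tests used here cannot pass 0.05 with 2 libraries per group.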

Other observations

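Among the genes outside the members, Gata2, a GATA factor best known for blood and endothelial cells, had 0 and 0 peaks at 0 h and 6 and 5 at 6 h, with 5 replicated regions at 6 h. Gata3, Trps1 and Gata1 had 1 region each. Of the corepressor genes, Gatad2a and Chd4, which encode NuRD subunits, had 9 and 8 replicated regions at 6 h. Chd4 had 0 and 3 peaks at 0 h and Gatad2a none.

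Several regions of the Zfpm1 window lay at neighbouring genes. A region at chr8:122376421-122376845, 38.8 kb from Zfpm1, had its strongest summit 127 bp from an end of Zc3h18 and a fold of 12.2 and 13.4 at 6 h. The unreplicated peaks of 6 h replicate 2 reached percentile 84.4 near Zfpm2, at a site 19.2 kb outside the gene with a fold of 19.8, and percentile 81.0 inside Wt1, with a fold of 18.1. No result met the criteria for a closer look, since groups of 2 libraries were too small for a search of outlying samples.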
